A study of Mus musculus with 20 samples.

Results

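Imprinted genes that set growth before and after birth were followed across fat and liver of PKC epsilon deficient and wild-type mice: H19, Igf2r, Cdkn1c and Meg3, and Igf2, Dlk1, Peg3, Mest and Plagl1. They are 9 of the 48440 genes in the count table and were taken from it by symbol. The set was chosen by its liver counts, since H19 lay lower in KO than in WT liver, so the KO and WT liver values of the 9 genes are given below as a description, with no test. The 4 groups, each with 5 libraries, were WT gonadal fat pad, KO gonadal fat pad, WT liver and KO liver. KO mice carry the genotype label AdEpsKO, which the labels do not expand, and the series title names the mice as deficient in PKC epsilon, a lipid-activated protein kinase encoded by Prkce. All groups were of C57BL/6 background and had 1 week of high fat diet and a 6 h fast before the tissues were taken, so no group on another diet was compared. The sources used here give no age or sex, nor do they say whether the fat and liver libraries of the same number came from 1 mouse.

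An imprinted gene is transcribed mainly from the copy inherited from 1 parent. H19, Igf2r, Cdkn1c and Meg3 are expressed from the maternal copy and are known mostly for restraining growth, whereas Igf2, Dlk1, Peg3, Mest and Plagl1 are expressed from the paternal copy. In liver most of them are abundant before birth and fall to low levels soon after it. The counts do not separate the parental copies.

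Libraries held 12880933 to 17276904 counts in fat and 13836366 to 20784135 in liver. Levels are given in CPM, the counts of a gene per 1000000 counts of its library after scaling. Prkce reached 25.4 to 48.1 CPM in WT fat and 16.0 to 25.1 CPM in KO fat, and the groups did not overlap. In liver its ranges overlapped, at 14.6 to 27.5 CPM in WT and 11.9 to 20.1 CPM in KO. Hepatocyte markers (12 genes, summed) were at least 125940 CPM in every liver library, and adipocyte markers (11 genes) at least 23395 CPM in every fat library. Skeletal muscle transcripts (17 genes) stood more than 5 times above the median of their tissue in WT fat library 2 and in WT liver libraries 2 and 4. KO fat library 2 held 1406.9 CPM of 7 bladder epithelium genes, against at most 4.10 CPM in any other fat library, and WT fat library 5 stood above the same limit of 5 times the median for markers of other organs. Results that moved without these libraries are given both ways. A lower level in bulk tissue can come from fewer cells of a type or from less RNA per cell, and these cannot be told apart here.

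Several of the genes hold a microRNA within their body. H19 is the precursor of miR-675, whose mature strands are shown because H19 is the gene on which the choice of the set turned. They lie on the minus strand of GRCm38.p6 at chr7:142577112-142577133 (5p) and chr7:142577078-142577099 (3p), within H19, as RefSeq gives them. Capitals mark the seed, bases 2 to 8, and the pair do not share it.
mmu-miR-675-5p: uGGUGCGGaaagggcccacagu
mmu-miR-675-3p: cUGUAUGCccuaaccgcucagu
These libraries were made from mRNA and Mir675 had 0 counts in all of them, so the microRNA itself was not measured. The annotated hairpins of miR-483, miR-770 and miR-335 lie within the bodies of Igf2, Meg3 and Mest.

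RefSeq promoter windows (GRCm38.p6, 250 bases before to 50 bases after a start site) were matched for 7 of the 9 genes, with 13 windows in all. H19 and Cdkn1c were not matched. Windows were searched on both strands for TGACGTCA (the cAMP response element, CRE), TATAAA (the TATA box) and CACGTG (the E-box), motifs that do not overlap each other in the sequences shown. The CRE letters were found in 1 window of Meg3 and 1 of Peg3, against 588 of all 32851 windows (1.79%). The bases before these start sites are shown with the CRE in capitals because only these windows of the set held it. All 7 matched genes, with or without the CRE, were called higher in fat than in liver, as described further on. With no matched gene outside that call, the motif could not be compared with the tissue difference here, and a link was not tested. The Meg3 sequence lies at chr12:109540746-109540995 on the plus strand, with the motif starting at position -57 from the start site. The Peg3 sequence lies at chr7:6730420-6730669 on the minus strand, with the motif starting at -178.
Meg3: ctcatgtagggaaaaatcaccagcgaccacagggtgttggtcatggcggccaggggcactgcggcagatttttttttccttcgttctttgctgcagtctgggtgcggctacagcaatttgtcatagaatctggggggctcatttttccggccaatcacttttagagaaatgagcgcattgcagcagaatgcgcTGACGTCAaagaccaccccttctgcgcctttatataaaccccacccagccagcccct
Peg3: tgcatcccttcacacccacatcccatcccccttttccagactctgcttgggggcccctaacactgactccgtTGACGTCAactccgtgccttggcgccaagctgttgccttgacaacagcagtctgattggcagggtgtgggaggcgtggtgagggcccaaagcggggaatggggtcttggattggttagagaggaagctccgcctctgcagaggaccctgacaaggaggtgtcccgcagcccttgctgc
TATAAA was found in the Meg3 window, and in 13.6% of all windows. CACGTG was found in a window of Igf2r and a window of Plagl1, and in 7.15% of all windows. These are matches of letters, and no binding was measured.

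H19 is a long non-coding RNA next to Igf2 (GRCm38 chr7:142575529-142578143, minus strand). In WT liver it reached 5.03, 14.4, 11.3, 22.4 and 14.0 CPM in libraries 1 to 5, from 63 to 237 counts a library. In KO liver it reached 3.91, 2.45, 1.13, 3.39 and 2.12 CPM, from 17 to 55 counts. Each KO library lay below each WT library, and the nearest pair were KO library 1 and WT library 1. The mean was 13.4 ± 6.25 CPM in WT (SD, n = 5) and 2.60 ± 1.09 CPM in KO, a KO over WT ratio of 0.191 with a 95% interval of 0.104 to 0.352. H19 was the only gene of the 9 whose liver groups did not overlap. Over all 13298 genes tested in liver, 2.94% had groups that did not overlap and 1.11% did so with KO lower, while 0.00752% were called at an adjusted p under 0.05. Since this contrast chose the genes, nothing is read from that count.

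Skeletal muscle, a tissue in which H19 is known to stay expressed after birth, left transcripts in several liver libraries. Acta1, the actin of skeletal muscle fibres, was at 0.240, 57.5, 7.11, 106.9 and 0.0855 CPM in WT liver libraries 1 to 5. It was at 10.9, 3.67, 0, 0.0893 and 3.59 CPM in KO liver. Ckm, the muscle creatine kinase, was at 0.240, 28.7, 4.41, 44.0 and 0 CPM in WT liver, and at 4.34, 1.45, 0, 0 and 1.32 CPM in KO liver. High Acta1 and Ckm thus stood in WT libraries 2 and 4, and WT library 4 was also the highest for H19.

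Over the whole list of 17 muscle genes, the sum ran from 1.91 to 428 CPM in WT liver and from 2.12 to 47.6 CPM in KO liver. All 10 muscle genes that passed the filter had a KO over WT log2 difference below 0 in liver, with a median of -2.88, and none was called at an adjusted p under 0.05 (edgeR). No muscle gene was at 0 in all libraries of either group. In the 4 liver libraries with the least muscle RNA, at 1.91 to 2.55 CPM, H19 was at 5.03 and 14.0 CPM in WT libraries 1 and 5 and at 1.13 and 3.39 CPM in KO libraries 3 and 4. WT library 5 held 1 count of Acta1 and none of Ckm, with H19 at 14.0 CPM. KO library 1 held the most muscle RNA of its group, 47.6 CPM, with H19 at 3.91 CPM, below WT library 3, which held 36.4 CPM. Without WT liver libraries 2 and 4, the log2 difference of H19 was -1.98, against -2.39 with all 10 libraries. Leaving out any 1 liver library gave -2.60 to -2.13. No KO liver held as much muscle RNA as WT libraries 2 and 4, and the part of muscle RNA in the H19 difference was not tested.

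**Figure D1:**
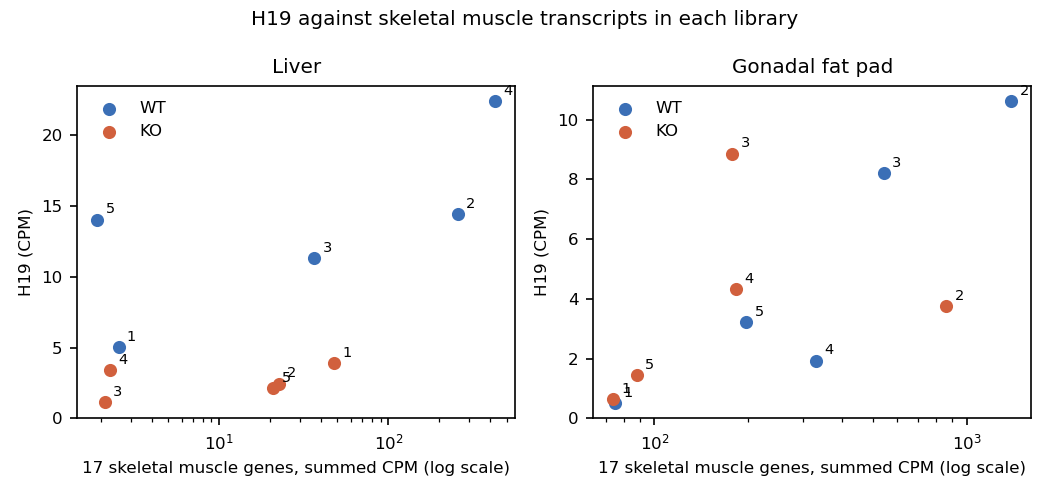
H19 (CPM, vertical axis) against the summed CPM of 17 skeletal muscle genes (horizontal axis, log scale) in each library of liver (left) and gonadal fat pad (right); points are single libraries, numbered 1 to 5 within WT (blue) and KO (orange). In liver all 5 KO libraries lie at or below 3.91 CPM and all 5 WT libraries at or above 5.03 CPM; no KO liver has a muscle sum above 47.6 CPM, and in fat the genotypes overlap.

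Cell cycle, macrophage and adipocyte genes had differences below 0 in KO liver too, none of them called. Of 13 cell cycle genes tested, all had a log2 difference below 0 and 9 had groups that did not overlap, with a median of -1.02, against 1.11% of all genes with such groups and KO lower. Top2a, the topoisomerase of dividing cells, was at 6.63, 7.76, 9.92, 3.02 and 6.41 CPM in WT liver and 2.05 to 2.95 CPM in KO liver. The library with the most H19, WT library 4, had the least Top2a of the WT livers. All 9 macrophage genes were below 0, with a median of -0.68, and none had groups that did not overlap. The 5 adipocyte genes tested in liver were below 0 as well, with a median of -0.83, and their groups overlapped. Other lists leaned lower by less: 3 of 12 hepatocyte, 2 of 10 stellate cell and 2 of 9 endothelial genes lay above 0. Their medians were -0.22, -0.11 and -0.03, and 2 hepatocyte and 2 stellate cell genes had groups that did not overlap, KO lower. All 3 mesothelium genes tested lay above 0. No gene of these lists was called (edgeR, adjusted p under 0.05), beside 0.00752% of all genes. Their part in the H19 difference was not tested.

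Within the liver groups, the genes whose log2 CPM followed H19 closely over the 10 libraries, after each group's mean was taken off, included Heatr6 (r = 0.935), Helz (r = 0.912) and Glcci1 (r = 0.880), out of 12928 genes of at least 1 CPM. Acta1 (r = 0.660) ranked 231 and Ckm (r = 0.648) ranked 265, whereas Top2a ran the other way (r = -0.407). Of the imprinted genes, Meg3 came nearest (r = 0.435, rank 1202) and Plagl1 lay at the other end (r = -0.484, rank 11857). These correlations describe 10 libraries that share depth and tissue composition, and carry no test.

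The remaining maternally expressed genes did not separate the genotypes in liver. Igf2r, the receptor that takes up IGF2 for breakdown, was at 76.2, 76.3, 72.5, 77.1 and 88.5 CPM in WT liver and 80.4, 84.7, 85.1, 78.2 and 70.7 CPM in KO liver. Its KO over WT ratio was 1.01 (0.892 to 1.15), the narrowest interval of the set. Cdkn1c, the cyclin-dependent kinase inhibitor p57, was at 2.29 to 4.10 CPM in WT and 2.34 to 4.81 CPM in KO, a ratio of 1.19 (0.835 to 1.71). Meg3, a long non-coding RNA of the Dlk1 domain, was at 1.54 to 2.65 CPM in WT and 1.76 to 2.70 CPM in KO, a ratio of 1.07 (0.762 to 1.51).

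Igf2, the growth factor whose gene shares enhancers with H19, was low in adult liver. It was at 0.320, 1.26, 0.20, 1.23 and 1.71 CPM in WT liver and 0.853, 1.15, 0.731, 0.893 and 0.952 CPM in KO liver. The groups overlapped, WT libraries spread more widely than KO libraries, and the ratio of 0.949 had an interval of 0.494 to 1.82. Peg3, a zinc finger protein, had a ratio of 1.05 (0.800 to 1.37), Mest, an endoplasmic reticulum hydrolase, 0.953 (0.659 to 1.38), and Plagl1, a zinc finger transcription factor, 0.930 (0.550 to 1.57). Dlk1, a membrane protein of precursor cells that holds back fat cell formation, did not pass the filter on low counts in liver. It had 8 counts in all 5 WT livers, 7 of them in library 3, and 2 counts in all 5 KO livers. In all, 8 of the 9 genes passed that filter. Without WT liver libraries 2 and 4, the log2 differences of the 7 genes beside H19 ran from -0.45 (Plagl1) to 0.26 (Igf2).

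**Figure D2:**
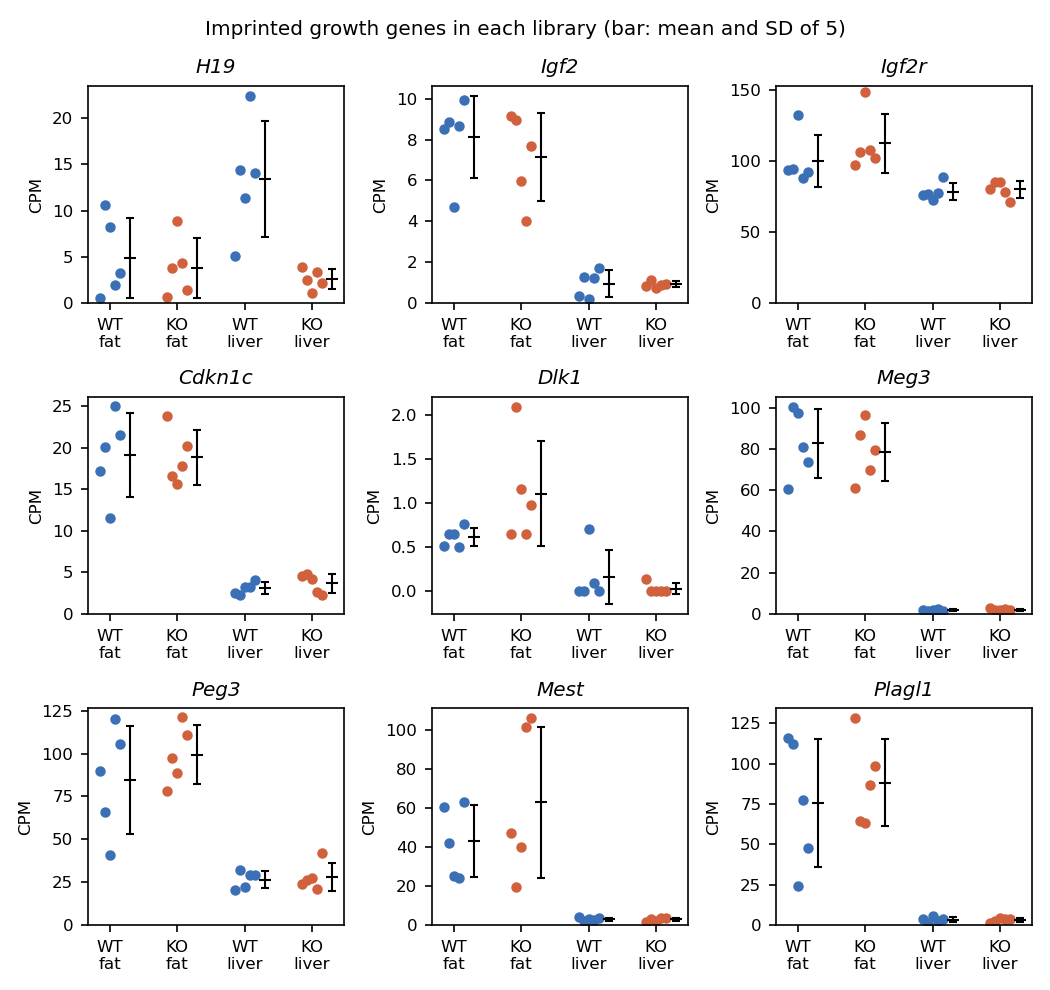
Level of each gene (CPM, vertical axis, linear) in the 5 libraries of each group (points; WT blue, KO orange), with the mean and SD beside them. H19 is the gene whose WT liver libraries, 5.03 to 22.4 CPM, all lie above its KO liver libraries; the other genes stand higher in fat, Meg3 at 60.7 to 100.2 CPM in WT fat against 1.54 to 2.65 CPM in WT liver.

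In the gonadal fat pad none of the 9 genes was called between KO and WT (edgeR quasi-likelihood test, Benjamini-Hochberg adjusted p over 14707 genes), and all 9 had groups that overlapped. Over all genes, 0% were called and 1.22% had groups that did not overlap. At an unadjusted p under 0.05, 1 of the 9 (Dlk1) stood out by edgeR, 1 (Dlk1) by DESeq2 and 0 by limma-voom, and over all genes 1048 did so by edgeR. No alternative called any of the 9 genes in fat, although DESeq2 gave Dlk1 no adjusted p. The median log2 difference of the 9 genes was 0.18, beside 0.00 over all genes. The 9 differences ran from -0.35 (H19) to 0.85 (Dlk1) with all libraries, and from -0.46 (H19) to 0.97 (Mest) without KO library 2 and WT library 5.

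H19 varied more between fat libraries than any other gene of the set in WT fat, with an SD of 88.1% of the mean. It was at 0.513, 10.6, 8.21, 1.93 and 3.22 CPM in WT fat and 0.654, 3.74, 8.86, 4.34 and 1.44 CPM in KO fat. The genotypes covered the same range, with a ratio of 0.783 (0.230 to 2.67) and an adjusted p of 0.946 by edgeR. The sign of this difference rested on WT library 2, the fat library with the most muscle RNA: the log2 difference was -0.35 with it and 0.14 without it. Acta1 was at 9.08, 126.9, 78.2, 52.2 and 56.8 CPM in WT fat and 8.34, 163.2, 20.5, 23.2 and 17.1 CPM in KO fat. The 17 muscle genes summed to 74.9 to 1390 CPM in WT fat and 73.8 to 861 CPM in KO fat. All 16 muscle genes that passed the filter in fat had a KO over WT log2 difference below 0, with a median of -1.05. None was called (edgeR). H19 was lowest in library 1 of each genotype, where the muscle sum was lowest too, but KO library 3 had the highest H19 of its group, 8.86 CPM, with a muscle sum of 177 CPM.

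The interval of the KO over WT ratio of H19 in fat, 0.230 to 2.67, overlapped that in liver, 0.104 to 0.352. Whether the genotype difference of H19 was unlike between fat and liver was not tested, since its liver values chose the set.

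Dlk1 had the lowest adjusted p of the set in fat, 0.687 (edgeR), with a KO over WT ratio of 1.81 (1.05 to 3.10). It was at 0.513, 0.650, 0.651, 0.506 and 0.758 CPM in WT fat, from 65 counts in all, and 0.654, 2.09, 1.16, 0.653 and 0.982 CPM in KO fat, from 108 counts. The highest value came from KO library 2, the library with bladder transcripts, and the log2 difference was 0.85 with it and 0.48 without it. KO libraries 2, 3 and 5 lay above all WT libraries, and KO libraries 1 and 4 lay among them.

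Mest, which is known to rise in expanding fat, was at 60.4, 42.3, 25.4, 24.3 and 63.3 CPM in WT fat and 47.4, 19.4, 39.9, 101.8 and 106.2 CPM in KO fat. Both the lowest and the highest value were KO libraries, and the ratio of 1.47 had an interval of 0.723 to 2.98 (edgeR, adjusted p = 0.807). Its lowest KO value and its highest WT value came from the libraries with markers of other organs, KO library 2 and WT library 5. Without them the log2 difference was 0.97, against 0.55 with them, at an unadjusted p of 0.048 and an adjusted p of 0.9996 (edgeR). Copg2, which overlaps Mest on the opposite strand, had a log2 difference of 0.17. Peg3 was at 89.9, 65.8, 41.1, 120.0 and 105.8 CPM in WT fat and 78.1, 97.3, 88.9, 121.5 and 111.0 CPM in KO fat, a ratio of 1.18 (0.796 to 1.75).

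Plagl1 was at 116.1, 112.1, 24.5, 77.7 and 47.9 CPM in WT fat and 128.2, 64.5, 63.5, 86.7 and 98.6 CPM in KO fat, a ratio of 1.17 (0.651 to 2.11). Igf2 was at 8.52, 8.84, 4.71, 8.65 and 9.95 CPM in WT fat and 9.16, 8.95, 5.96, 4.01 and 7.69 CPM in KO fat, a ratio of 0.884 (0.599 to 1.30). WT library 3 was the lowest WT fat library for both genes.

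Of the maternally expressed genes, Igf2r was at 93.3, 94.2, 131.8, 87.6 and 92.2 CPM in WT fat and 96.9, 106.2, 148.6, 107.8 and 102.1 CPM in KO fat, a ratio of 1.13 (0.902 to 1.42). Cdkn1c was at 17.2, 20.1, 11.6, 25.0 and 21.6 CPM in WT fat and 23.9, 16.6, 15.6, 17.9 and 20.2 CPM in KO fat, a ratio of 0.991 (0.738 to 1.33). Meg3 was at 60.7, 100.2, 97.6, 81.0 and 73.5 CPM in WT fat and 60.8, 86.7, 96.5, 69.5 and 79.5 CPM in KO fat, a ratio of 0.957 (0.745 to 1.23). In all 3 the genotypes overlapped, and library 3 of each genotype was the highest for Igf2r and the lowest for Cdkn1c.

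**Figure D3:**
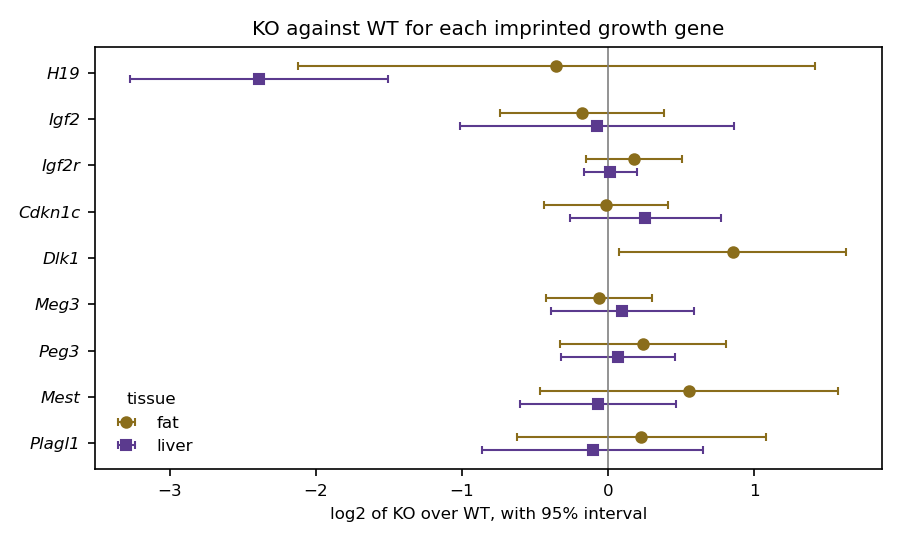
Difference between KO and WT (log2 ratio, horizontal axis) with its 95% interval for each gene in fat (circles) and liver (squares). In liver H19, whose low KO values chose the set, is drawn at -2.39 and the other genes at -0.10 to 0.26, as a description; Dlk1 has no liver value because it did not pass the filter on low counts, and in fat none of the 9 genes was called.

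Library 3 of each genotype was also the highest of its group for fibroblast and macrophage genes and for Top2a. The 10 fibroblast and fat progenitor genes summed to 10419 CPM in WT library 3 and 6412 CPM in KO library 3, against medians of 4449 CPM in WT fat and 4204 CPM in KO fat. The 9 macrophage genes summed to 1873 and 1258 CPM in these libraries, against medians of 674 CPM in WT and 452 CPM in KO. Top2a was at 57.4 and 45.4 CPM there, and at 7.09 to 29.4 CPM in the other fat libraries. On the summed lists KO library 3 stood near other libraries. WT library 5 held 6409 CPM of the fibroblast and fat progenitor genes, and KO library 4 held 1123 CPM of the macrophage genes. Between KO and WT fat, 1 of 11 adipocyte genes had a log2 difference above 0, with a median of -0.41. Of the 10 fibroblast and fat progenitor genes, 0 lay above 0 (median -0.27), and of 8 macrophage genes tested, 2 did (median -0.40). Of 9 endothelial genes, 7 lay above 0. Groups did not overlap, with KO lower, for 2 adipocyte genes and 1 macrophage gene. Over all genes, 1.22% had groups that did not overlap in either direction. None of these genes was called (edgeR). The part of these transcripts in the values of Igf2r, Cdkn1c, Igf2 and Plagl1 was not tested.

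Over the 10 fat libraries, with each group's mean taken off, the genes fell into loosely opposed sides. Igf2r ran against Cdkn1c (r = -0.837), Plagl1 (r = -0.713), Igf2 (r = -0.644) and Peg3 (r = -0.623), and with H19 (r = 0.672) and Meg3 (r = 0.616). Cdkn1c went with Plagl1 (r = 0.677), Igf2 (r = 0.666) and Peg3 (r = 0.657). H19 and Meg3 were the closest pair of the set (r = 0.868), and Meg3 ranked 13 of 13780 genes in likeness to H19 in fat. H19 and its neighbour Igf2 ran apart (r = -0.482).

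The genes most like H19 in fat were Sema3d (r = 0.943), Adssl1 (r = 0.911), Rbm41 (r = 0.910), Wrap73 (r = 0.905) and Impa2 (r = 0.899). Ckm (r = 0.758) ranked 140 and Acta1 (r = 0.660) ranked 518. As in liver, these values describe 10 libraries that share composition and depth.

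Compared between tissues, 8 of the 9 genes were higher in fat than in liver, in WT and again in KO mice (edgeR quasi-likelihood test, Benjamini-Hochberg adjusted p under 0.05). Of all genes tested, 38.4% were called higher in fat in WT and 38.8% in KO. The libraries did not overlap for 6 of the 9 genes in WT and 8 in KO, against 32.1% and 31.5% of all genes with fat higher. Dlk1 is counted among the 8 called genes and, in KO, among those without overlap. It did not pass the filter among liver libraries alone and entered through its fat counts, so its direction was given in advance. The median log2 difference of the 9 genes was 2.64 in WT and 3.01 in KO, beside 0.04 and 0.05 over all genes. The WT and KO comparisons share no library.

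Meg3 was 43.3-fold higher in fat in WT (32.3 to 58.2; adjusted p = 5.3e-10, edgeR) and 39.1-fold in KO (29.8 to 51.4; adjusted p = 7.07e-10, edgeR). All fat libraries held at least 60.7 CPM and all liver libraries at most 2.70 CPM. Rian and Mirg, non-coding RNAs of the same domain, were higher in fat with it, with log2 differences of 5.07 and 5.00 in WT and 5.40 and 4.68 in KO. Both genes of that domain's list of 4 that passed the filter were called. Mirg, at 0.0468 CPM in WT liver and 0.0796 CPM in KO liver, did not pass it among liver libraries alone. It entered through its fat counts, so the direction of its call was given in advance.

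Plagl1 was 23.5-fold higher in fat in WT (11.6 to 47.7; adjusted p = 2.74e-06, edgeR) and 29.9-fold in KO (18.2 to 49.0; adjusted p = 1.49e-07). Mest was 14.6-fold higher in WT (8.93 to 23.8; adjusted p = 4.53e-07, edgeR) and 22.8-fold in KO (10.6 to 49.1; adjusted p = 1.18e-05). Liver held 1.28 to 5.41 CPM of Plagl1 and 1.78 to 3.92 CPM of Mest, below every fat library. Copg2, which overlaps Mest, was not called, at log2 differences of 0.23 in WT and 0.11 in KO.

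Igf2 was 8.52-fold higher in fat in WT (4.42 to 16.4; adjusted p = 4.13e-05, edgeR) and 8.05-fold in KO (5.36 to 12.1; adjusted p = 1.1e-06). Its lowest fat library, at 4.01 CPM, lay above its highest liver library, at 1.71 CPM. H19 did not follow it. In WT mice H19 lay lower in fat than in liver, at a log2 difference of -1.44 with overlapping libraries, and in KO mice it lay at 0.61, also with overlap. Both values are descriptions without a test, and leaving out single libraries gave -1.95 to -1.15 in WT and 0.01 to 0.86 in KO.

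Cdkn1c was 6.22-fold higher in fat in WT (4.43 to 8.75; adjusted p = 5.38e-07, edgeR) and 5.22-fold in KO (3.77 to 7.24; adjusted p = 1.23e-06). Of the 7 tested genes of its domain, 2 were called higher and 1 lower in WT, and 3 higher and 1 lower in KO. Over all genes in WT, 38.4% were called higher and 35.9% lower. The lower gene was Slc22a18, an organic cation transporter, at 4.72 CPM in WT fat against 90.8 CPM in WT liver. Nap1l4, a histone chaperone, was higher in fat by 0.60 in WT and 0.63 in KO on the log2 scale, and Cd81, a tetraspanin, was not called, at 0.00 and -0.14.

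Peg3 was 3.21-fold higher in fat in WT (2.16 to 4.76; adjusted p = 9.52e-05, edgeR) and 3.67-fold in KO (2.76 to 4.87; adjusted p = 3e-06). Zim1, its neighbour, was higher in fat by 4.14 in WT and 4.68 in KO on the log2 scale, and was the 1 gene of the domain's list of 4 that passed the filter. At 0.216 CPM in WT liver and 0.209 CPM in KO liver, Zim1 did not pass it among liver libraries alone. It too entered through its fat counts, which gave its direction in advance. Peg3 kept a substantial level in liver, at 20.3 to 41.8 CPM over both genotypes.

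Igf2r differed least of the 8. It was 1.29-fold higher in fat in WT (1.07 to 1.55; adjusted p = 0.0172, edgeR), with overlapping libraries, and 1.46-fold in KO (1.21 to 1.76; adjusted p = 0.00176), without overlap. Without the libraries rich in muscle RNA, the WT log2 difference of 0.37 was no longer called (adjusted p = 0.0918, edgeR). Airn, the antisense RNA that overlaps Igf2r and is known to silence its paternal copy, was at 5.01 CPM in WT fat and 0.831 CPM in WT liver, a log2 difference of 2.61. Slc22a3, a transporter of the domain, was at 56.3 and 4.39 CPM in the same groups. As the sources used here do not name the strand setting of the counting, reads of Igf2r and Airn, and of Mest and Copg2, may not be fully separated.

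Dlk1 rested on few reads. Pooled over libraries, fat held 65 counts and liver 8 in WT, a depth-adjusted ratio of 4.50 (2.15 to 10.9), and 108 against 2 counts in KO, a ratio of 37.5 (10.1 to 313.4); these intervals cover counting error only. In liver 3 of 5 WT libraries and 4 of 5 KO libraries had 0 counts. By edgeR the log2 difference was 2.08 in WT (adjusted p = 0.0294) and 4.95 in KO (adjusted p = 1.03e-04). It rested on single libraries: in WT it was 4.46 without liver library 3, which held 7 of the 8 counts, and 1.72 to 2.13 without any 1 other library in which Dlk1 still passed the filter, which it did not without WT fat library 2 or 4. In KO it was 4.56 to 5.07 without any 1 library other than liver library 1, and without that library all KO livers were at 0, so no fold is given. The WT call was lost without WT liver library 1, 2, 4 or 5 or WT fat library 5, at log2 differences of 1.72 to 1.98 and adjusted p of 0.0563 to 0.0706 (edgeR). It was also lost without the muscle-rich libraries, at 1.49 and an adjusted p of 0.199 (edgeR).

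**Figure D4:**
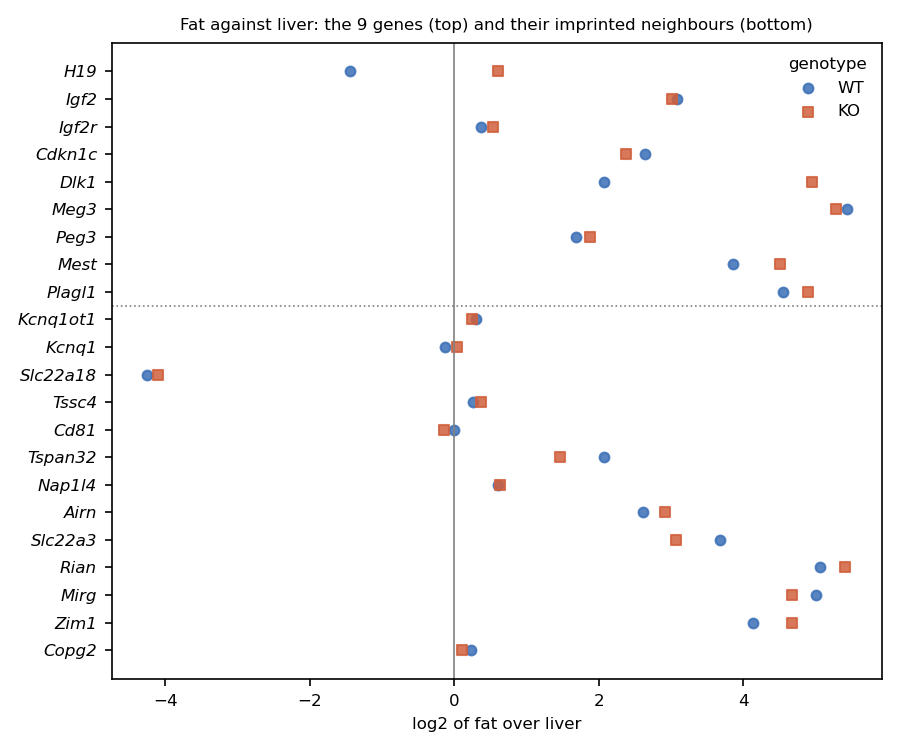
Difference between fat and liver (log2 ratio, horizontal axis, with right of 0 higher in fat) in WT (circles) and KO (squares). The 9 genes are above the dotted line. Below it are tested neighbours in the imprinted domains of Cdkn1c, Igf2r, Dlk1 and Meg3, Peg3 and Mest. Slc22a2 of the Igf2r domain was tested but is not drawn, and was at 0 CPM in both liver groups. Mirg and Zim1 entered through their fat counts, which gave their direction in advance. Meg3 lies at 5.44 and 5.29; H19 is left of 0 in WT, at -1.44, and right of 0 in KO, at 0.61.

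Among 39 other imprinted genes, 30 were tested between tissues in WT, of which 18 were called higher in fat and 9 lower (edgeR), against 38.4% and 35.9% of all genes. Of those called higher, Nnat, Nap1l5, Mkrn3 and Gpr1 did not pass the filter among liver libraries alone. Ddc, called lower, did not pass it among fat libraries alone. The direction of these calls was given in advance. Nnat, a small membrane protein, was at 671.6 CPM in WT fat and 0.916 CPM in WT liver. Slc38a4, an amino acid transporter, stood the other way, at 3.59 CPM in WT fat and 1695 CPM in WT liver. Thus imprinted genes did not all favour fat. None of these genes was called between KO and WT in fat (31 tested) or in liver (26 tested). Over all genes, 0% were called in fat and 0.00752% in liver, so nothing is read from this count. Grb10 had fat groups that did not overlap, at 109.0 CPM in WT and 84.5 CPM in KO (edgeR, adjusted p = 0.687). It was the 1 such gene of the 31, against 1.22% of all genes.

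Per kilobase of the longest transcript, levels can be compared between the genes. In WT fat the order was Mest (16.2 ± 6.95 CPM per kb, SD, n = 5), Plagl1 (14.4), Igf2r (11.2), Cdkn1c (10.0), Peg3 (9.72), Meg3 (5.68), H19 (2.14), Igf2 (1.72) and Dlk1 (0.132). Only Igf2 and Dlk1, among neighbours in that order, had libraries that did not overlap. In KO fat Peg3 (11.4) stood just above Cdkn1c (9.91), with overlap, and the order was otherwise the same. In WT liver Igf2r (8.79 ± 0.68) came first and H19 (5.88 ± 2.74) second, with overlapping libraries, ahead of Peg3 (3.05), Cdkn1c (1.63), Mest (1.11), Plagl1 (0.622), Igf2 (0.20), Meg3 (0.132) and Dlk1 (0.0342). In KO liver H19 (1.14 ± 0.477) came after Igf2r (8.98), Peg3 (3.23) and Cdkn1c (1.95), and its libraries overlapped those of Cdkn1c and Mest. With all exonic bases as the length, Igf2r stood above Plagl1 in fat, and Cdkn1c above Peg3 in KO fat.

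Genes that act with the 9 were taken from lists. Of 17 genes of the IGF axis, 14 were tested between KO and WT in fat and 15 in liver, and none was called (edgeR). Over all genes, 0% were called in fat and 0.00752% in liver. The most abundant in liver were Igfbp4, an IGF binding protein, at 2295 CPM in WT and 2066 CPM in KO, and Igf1, the growth factor that replaces Igf2 after birth, at 855 and 830 CPM. Between tissues 6 of 15 were called higher in fat and 6 lower in WT, and the same counts held in KO. These lie near the shares over all genes, 38.4% higher and 35.9% lower in WT. Igfbp1, among the lower genes, did not pass the filter among fat libraries alone. It entered through its liver counts, so its direction was given in advance. Igf1 was lower in fat by 2.28 in WT on the log2 scale, opposite to Igf2.

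Genes of proteins that maintain imprints were not called between genotypes either, with 13 tested in fat and 11 in liver out of 14 (edgeR). The shares called over all genes were again 0% in fat and 0.00752% in liver. Ctcf, which binds the control region between H19 and Igf2, was at 44.9 ± 5.05 CPM in WT liver and 49.6 ± 7.47 CPM in KO liver, and Trim28, a co-repressor at imprinted regions, at 94.6 ± 6.86 and 84.5 ± 6.94 CPM (SD, n = 5). The postnatal repressors Zhx2 and Zbtb20, of which Zhx2 is known to silence H19 in mouse liver after birth, were not called. Zhx2 was at 24.6 ± 1.54 CPM in WT liver and 20.2 ± 2.48 CPM in KO liver (edgeR, adjusted p = 0.254). Zbtb20 was at 204.8 ± 50.9 and 260.3 ± 33.6 CPM (edgeR, adjusted p = 0.388).

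Of 8 genes known from foetal liver, 5 were tested in liver and none was called, beside 0.00752% of all genes. Gpc3, a cell surface proteoglycan, was at 2.35 CPM in WT liver and 1.73 CPM in KO liver. Cd24a, a surface glycoprotein of progenitor cells, was at 16.0 ± 10.4 and 6.45 ± 1.33 CPM, with overlapping groups. Epcam was at 2.30 CPM in WT liver and 1.95 CPM in KO liver. The log2 differences of the remaining 2 were above 0: Spp1 was at 64.0 and 65.3 CPM, and Afp at 1.60 and 1.67 CPM. Of the 4 other genes of the H19 and Igf2 domain, none passed the filter in any comparison. Of the 7 tested genes near Cdkn1c, Tssc4 had liver groups that did not overlap, lower in KO by a log2 difference of -0.32, and was not called (edgeR, adjusted p = 0.312). Over all genes tested in liver, 1.11% had such groups with KO lower.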

How the data were processed

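RNA was taken up with an RNeasy kit and made into TruSeq Stranded mRNA libraries, per the labels' protocols. Tools named, with build GRCm38, were STAR 2.4.0d, RSEM 1.2.12, Trim Galore 0.2.8 and DESeq2, per the submitters' processing notes; the annotation release and the counting strand were not named there. The authors deposited expected counts by gene, without normalization. In each library 3.95% to 5.8% of values were not whole, and all were rounded. Symbols, lengths and overlaps came from a GENCODE annotation of GRCm38, matched for 48058 of 48440 IDs.

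Genes were kept with filterByExpr (minimum count 10, minimum total 15) among the 10 libraries of a comparison, scaled by TMM and tested with the robust quasi-likelihood fit of edgeR 4.0.16 under R 4.3.3, with p-values adjusted by Benjamini-Hochberg over all genes and called under 0.05. Levels are CPM scaled by TMM within a tissue and then between tissues; summed marker lists use plain library sizes. Correlations use log2 of CPM plus 1. The design names 5 mice per group, and p-values measure the spread between these libraries. Pairs of libraries within a group differed by more than counting error (chi-square per degree of freedom at least 15.95).

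The genes and lists were chosen with earlier results of these data known. Named were the 9 genes, up to 4 of the most abundant genes of each pathway list, marker genes and the 5 genes most like H19 in each tissue. Some genes that this rule names are left out. Prkce, as the targeted gene, was named outside that rule. Tools were tested on simulated data. Alternatives were RLE and upper quartile scaling, other filters, DESeq2 1.42.0, limma-voom (limma 3.58.1), a joint fit of the 20 libraries, a replicate block, exonic length and libraries left out.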

Additional observations from a re-analysis of the deposited data

Results flagged for a closer look

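In 6 of the 36 sets of 5 libraries (9 genes in 4 groups), 1 library stood far from the other 4. Its gap to the nearest passed Dixon's 95% limit, which chance does in about 1 of 20 sets of normally distributed values. CPM values, some of them near 0, need not be such values, so the number of flags is not read as an excess. Igf2r gave 3 of these: WT fat library 3 at 131.8 CPM, KO fat library 3 at 148.6 CPM and WT liver library 5 at 88.5 CPM, each the highest of its group. Igf2 was lowest in WT fat library 3, at 4.71 CPM. Dlk1 was highest in WT liver library 3, at 0.701 CPM from 7 counts, and in KO liver library 1, at 0.142 CPM from 2 counts, where the other 4 KO livers had 0. With 4 libraries at 0, a set passes the limit whatever the count of the remaining library.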

How the results depend on the processing

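In fat, edgeR called 0 genes between KO and WT and DESeq2 called 13. In liver, edgeR called 1 gene; 15 were called with no filter on low counts, 137 by DESeq2, 3 by limma-voom, 2 with all 20 libraries in 1 fit and 3 without the muscle-rich libraries. Leaving out 1 library at a time gave 0 in fat and 0 to 3 in liver, with 0 without WT liver library 3 or 5. Small differences between KO and WT changed sign in both tissues. In liver, Igf2 went from -0.08 to 0.21 by limma-voom, 0.09 with the replicate block and 0.26 without the muscle-rich libraries, Peg3 from 0.07 to -0.09 by limma-voom, and Igf2r from 0.0163 to -0.0021 with upper quartile scaling. Over single liver libraries left out, the ranges of Igf2, Igf2r, Meg3, Peg3, Mest and Plagl1 held 0. In fat, 3 genes changed sign. Cdkn1c went from -0.01 to 0.0055 without the muscle-rich library and to 0.0797 without the libraries holding other organs, Meg3 from -0.06 to 0.0148 and H19 from -0.35 to 0.14 without the muscle-rich library; over single libraries left out they ran from -0.15 to 0.11, -0.16 to 0.0183 and -0.93 to 0.14. The cause was not tested. With the replicate number as a block, 3 genes were called in liver, 0 in fat, and Cdkn1c in fat stood at 0.014; no call of the 9 genes changed. In that fit Igf2r in fat stood at 0.18 with an unadjusted p of 0.0401 and an adjusted p of 0.52 (edgeR), against an unadjusted 0.256 without the block, and the standard error of H19 was 0.41 against 0.80. The numbers were not taken as pairs, since the labels do not pair the libraries and only 3 of 5 numbers in fat correlated clearly above 0: same-numbered libraries correlated at -0.209 to 0.56 between genotypes in fat and -0.202 to 0.249 in liver, and not every library correlated best with its own number. Of 308 alternative values of the 8 genes higher in fat, 300 stayed called in the same direction and 8, of Dlk1 and Igf2r in WT, were no longer called. Upper quartile scaling moved the median of all genes between fat and liver by 0.29 in WT and 0.27 in KO, and the share of calls higher in fat from 51.7% to 65.1% in WT and from 52.1% to 64.4% in KO. Exonic length moved 10 of 36 levels per kilobase by more than 1 SD. Depth limits Dlk1 and Igf2 in liver most, at 2 to 8 and 56 to 61 counts a group. Dlk1 in every comparison, and Igf2 between KO and WT liver, had no value with the filter of 1 CPM in 5 libraries, since they did not pass it.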
